A study of Callithrix jacchus with 71 samples.

Results

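The cells described here are marmoset induced neural stem cell-like cells (iNSLCs) that carried reads of HOXA9, set beside the iNSLCs that carried none. The groups were defined by the HOXA9 value itself: of the 65 iNSLCs, 35 had a normalized count above 0 and 30 had 0. The series holds 71 cells in all, each profiled singly by RamDA-seq, a full-length total RNA method, after being sorted into plates. The iNSLCs belonged to 1 line, E01F A-2, at passage 1. Embryonic dorsal skin fibroblasts of the common marmoset (E01F) had received episomal vectors for EGFP, a dominant-negative form of mouse Trp53 and the human factors LIN28, L-MYC, KLF4, SOX2 and OCT4, and were grown on feeder cells in NSM, a medium for naive-state cells. Both groups of iNSLCs share that history, and reads of the vector factors may come in part from vectors that the cells still carry. The other cells of the series, used only to show HOX and marker levels outside the iNSLCs, are 4 ESCs of line no. 40, 1 iPSC of E01F A-2-2 and 1 E01F fibroblast. Because the iNSLCs are cells of 1 culture, none is a replicate, and the differences below are given as values without a test. Intervals are exact at 95% and cover counting error only.

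HOX genes encode homeodomain transcription factors that give cells along the head-to-tail axis their positional identity. They lie in the clusters A, B, C and D and are numbered by paralogue group in the order in which they lie, so that genes with low numbers are switched on towards the head and genes with high numbers towards the tail. In the neural tube, groups 1 to 4 are used from the hindbrain backwards, and groups 5 to 13 mainly in the spinal cord. HOXA9 is a member of the A cluster used in trunk-level tissue, with a further role in blood-forming cells.

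Among the 35 iNSLCs with HOXA9 reads, the HOXA9 level ran between 0.969 and 40.8 normalized counts, with a median of 5.01 and a mean of 8.62. These are the values by which the cells were chosen. In reads they came to 256 (interval 226 to 289), with 1 to 25 in a cell. The split lies at the edge of detection, since 6 cells stood just inside it with 1 read, 21 had 2 to 9 reads and 8 had 10 or more. Cell 40, which stands out below for ROBO3, CRABP1, TFAP2A and neuronal genes, was among the 6 with 1 read. The highest levels, 40.8 and 37.3 normalized counts, were in cells 68 and 58, and cells 77 and 38 had the most reads, 25 each. A count of 0 among the 30 cells just outside does not show absence, because 1 read was worth 0.441 to 2.84 normalized counts in an iNSLC and 5 of the 33 deeper cells with HOXA9 reads lost them all when reads were thinned to a common depth. None of the 4 ESCs and the iPSC had a HOXA9 read, and the fibroblast had 4 reads (1.62 normalized counts).

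Cells with HOXA9 reads were somewhat deeper. Reads on named genes had a median of 272658 (115236 to 695241) in iNSLCs with HOXA9 reads and 230949 (82268 to 642253) in iNSLCs without, and detected genes had medians of 11329 and 10625. The cells fall into 12 with and 15 without HOXA9 reads at cell numbers 56 or below, and 23 with and 15 without at 57 or above. At 56 or below the median reads were 350776.5 in cells with and 370066 in cells without HOXA9 reads, and at 57 or above 212245 and 186654. Both groups carried the markers behind the iNSLC name: SOX2, MSI1, NES, VIM and CDH2 had reads in every cell, PAX6 in 34 of 35 cells with and 29 of 30 without HOXA9 reads, and SOX1 in 33 and 24. Of 10 fibroblast markers 8 had reads in cells with HOXA9 reads and 6 in cells without, PRRX1 and POSTN were at 0 throughout, and their sum ran between 3.89 and 861 normalized counts (median 56.7) in cells with and between 0 and 1073 (median 29.3) in cells without HOXA9 reads, against 27016 in the fibroblast. Of 6 pluripotency markers 4 had reads in cells with and 3 in cells without, with a median sum of 0 in both and TDGF1 and CDH1 at 0. The part of read depth and of these marker levels in the differences below was not tested beyond the equal-depth and within-set values given.

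**Figure D1:**
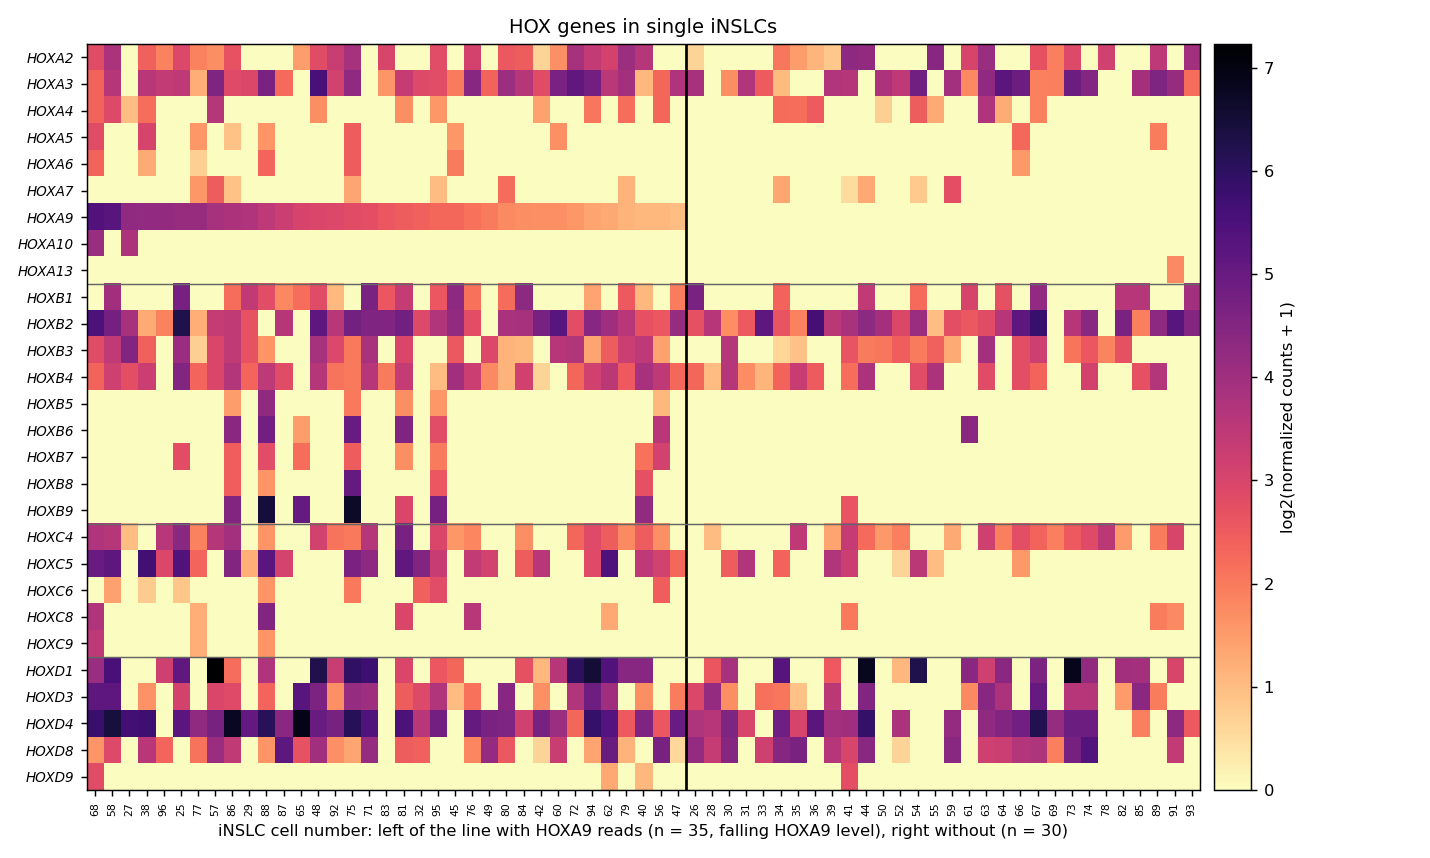
Heat map of HOX genes with a read in any iNSLC (rows, by cluster and paralogue group) in each of the 65 iNSLCs (columns, named by cell number), coloured by log2(normalized counts + 1). The 35 cells with HOXA9 reads stand left of the black line in falling order of HOXA9 and the 30 cells without stand right of it. Reads of HOXB5 to HOXB9 gather in a few columns on the left, while HOXA3, HOXB2 and HOXD4 run across both sides.

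Cells with HOXA9 reads carried more of the other HOX genes. Of 30 other HOX genes in the table, a cell with HOXA9 reads had reads of 6 to 21 (median 12, mean 11.9) and a cell without had 3 to 14 (median 8, mean 8.07), so the groups overlapped. Thinning every cell to 129629 reads left 33 cells with and 25 without HOXA9 reads, and the median number was then 10 and 8 (means 10.5 and 7.32). Within cell numbers 56 or below the medians were 10.5 and 8, and within 57 or above 12 and 8. The gap was wider, in proportion, for the genes of groups 5 to 13, with a mean of 3.63 genes in cells with and 1.43 in cells without HOXA9 reads, than for groups 1 to 4, with means of 8.26 and 6.63. At equal reads these means were 3 and 1.16 for groups 5 to 13, and 7.48 and 6.16 for groups 1 to 4. At least 2 genes of groups 5 to 13 were seen in 28 of 35 cells with (80%, 63.1% to 91.6%) and 11 of 30 cells without HOXA9 reads (36.7%, 19.9% to 56.1%). This grouping by number was made after the values were seen.

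The summed level of the other HOX genes was also higher in cells with HOXA9 reads, at 40.1 to 430 normalized counts (median 113) against 21.1 to 277 (median 76.3) in cells without. Of the summed reads, 4645 were in cells with and 2786 in cells without HOXA9 reads, and the ratio of mean sums was 1.66. By cluster, the mean sums were 21.1 and 17.4 normalized counts for the A cluster without HOXA9, 47.7 and 25.9 for B, 20.3 and 5.06 for C, and 71.0 and 47.8 for D, in cells with and without HOXA9 reads in that order. The C cluster had the widest proportion and the A cluster, in which HOXA9 itself lies, the narrowest. For groups 5 to 13 the ratio of mean sums was 3.05 and for groups 1 to 4 it was 1.45.

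**Figure D2:**
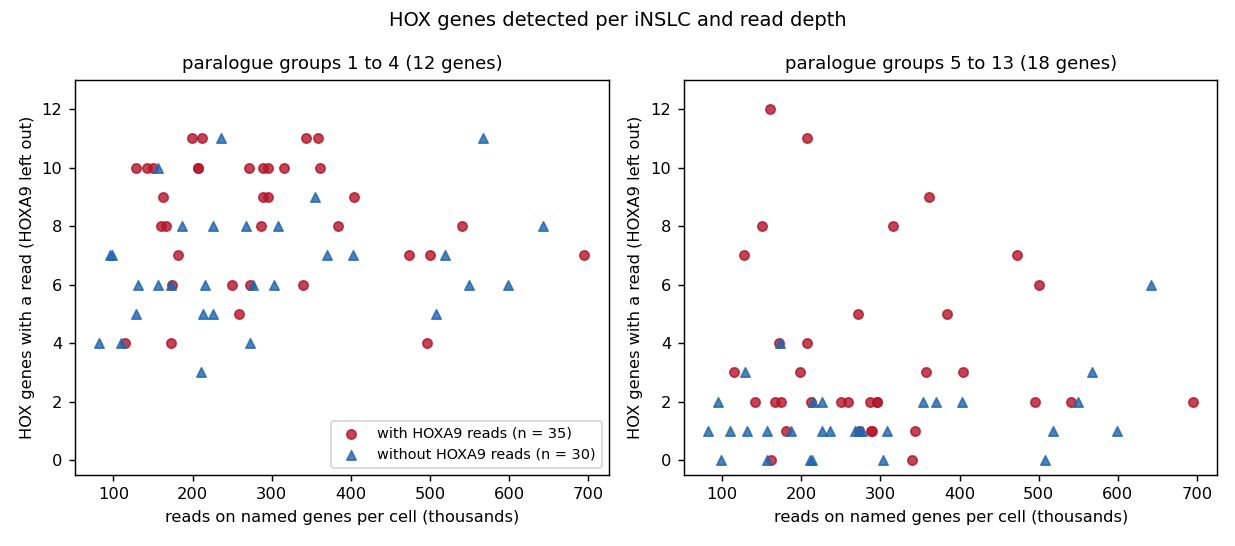
Number of HOX genes other than HOXA9 with a read (y) against reads on named genes (x) in each iNSLC, for paralogue groups 1 to 4 on the left and 5 to 13 on the right. Red circles are the 35 cells with and blue triangles the 30 cells without HOXA9 reads. On the right, 10 cells with and 1 cell without HOXA9 reads have 5 or more genes, and the 1 cell without is cell 41, whose 642253 reads are the most in its group.

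In shares of cells, 28 of the 30 other HOX genes had a read in some iNSLC, HOXA11 and HOXC10 had none, and 26 of the 28 were seen in a larger share of the cells with HOXA9 reads. The share was at least 10 percentage points higher for 18 of the 28 and at least 10 points lower for none, where 19.4% and 4.68% of all 22288 genes with a read in an iNSLC passed those limits. At equal reads it was at least 10 points higher for 16 of the 27 HOX genes that kept a read, against 16.7% of all genes, and lower for none, against 7.15%. Of the 16, 7 belonged to groups 1 to 4 and 9 to groups 5 to 13. In levels, 15 of the 30 genes had a mean of at least 1 normalized count over the 65 iNSLCs, and 4 of these, HOXB6, HOXB9, HOXC5 and HOXD4, were at least 2-fold higher with HOXA9 reads (2.15% of all 13602 genes compared). None was at least 2-fold lower, where 0.735% of all genes compared were. The median log2 ratio over the 15 was 0.46, against 0.07 over all genes compared, where the log2 ratio is that of the group means after adding 1. A gene seen in few cells passed this limit on its mean mostly through the group in which it was high, so the counts describe and do not test.

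**Figure D3:**
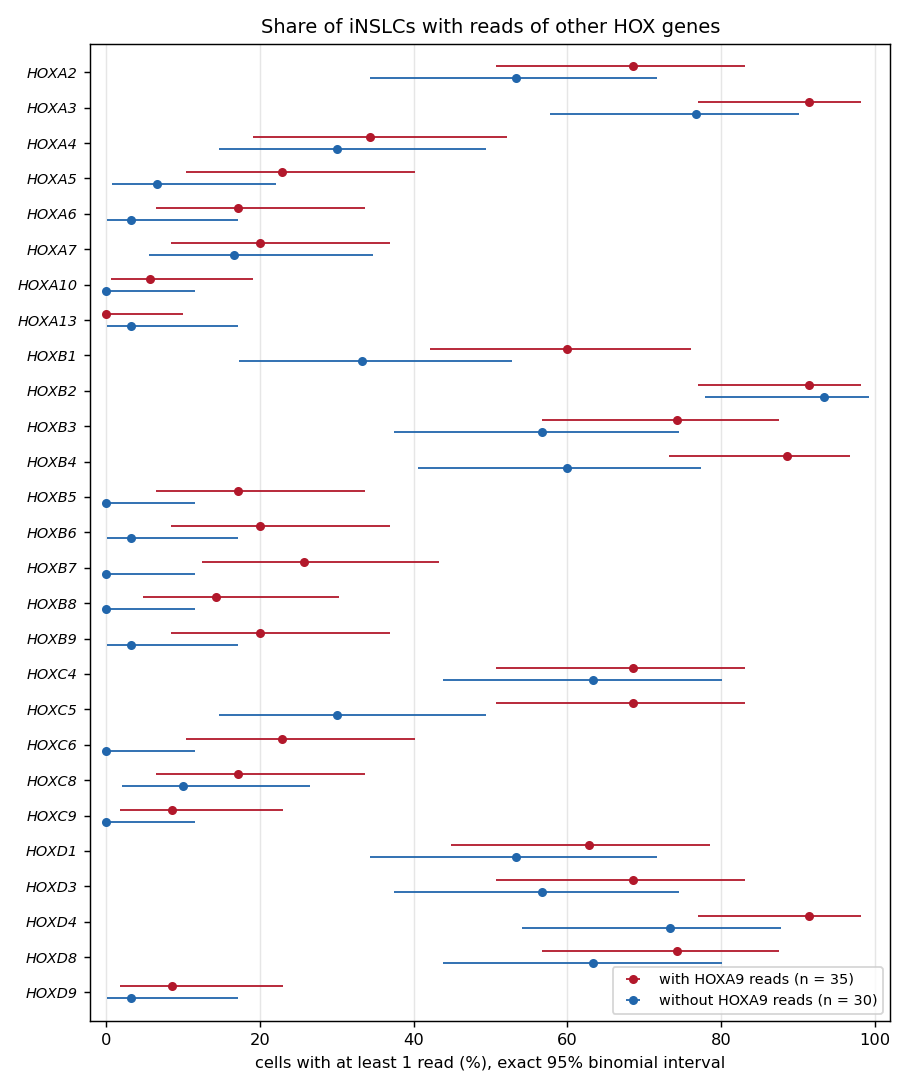
Share of iNSLCs with at least 1 read of the HOX genes named on the y axis (x, percent). Red points are the 35 cells with and blue points the 30 cells without HOXA9 reads, with exact 95% binomial intervals as bars. The intervals of HOXC5 stand apart, at 50.7% to 83.1% in cells with and 14.7% to 49.4% in cells without HOXA9 reads, whereas those of HOXB2 and HOXC4 largely cover each other.

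The genes of group 1 lead the hindbrain programme and are controlled by retinoic acid. HOXB1 had reads in 21 of 35 cells with HOXA9 reads and 10 of 30 without, at medians of 2.47 and 0 and highest values of 25.8 and 24.5 normalized counts. HOXD1 was among the most uneven, at 0 to 149 normalized counts (median 5.68) in cells with and 0 to 115 (median 2.94) in cells without HOXA9 reads, and its log2 ratio of 0.35 was 0.68 at cell numbers 57 or above and -0.53 at 56 or below. HOXA2 and HOXB2, which pattern the hindbrain segments and the neural crest of the pharyngeal arches, had nearly level means of 4.68 and 4.50 for HOXA2 and 15.9 and 15.0 for HOXB2. HOXB2 had reads in 32 of 35 cells with and 28 of 30 without HOXA9 reads.

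Groups 3 and 4 reach to the hindbrain and upper cervical cord. HOXA3, with means of 11.2 and 10.6 normalized counts, did not separate the groups, and HOXA4 was low in both at 1.30 and 1.16. HOXB3 averaged 5.42 and 2.74, HOXB4 6.38 and 3.77, HOXC4 4.97 and 2.96, and HOXD3 8.66 and 6.005 normalized counts in cells with and without HOXA9 reads. HOXB4 was seen in 31 of 35 cells with (88.6%) and 18 of 30 without HOXA9 reads (60%), with 11 of 12 and 12 of 15 at 56 or below and 20 of 23 and 6 of 15 at 57 or above. HOXD4 ran between 0 and 118 normalized counts (median 26.8) in cells with HOXA9 reads and between 0 and 72.8 (median 13.6) in cells without, so the ranges overlapped but the middle of the first was higher. Its reads came to 1045 (983 to 1110) and 456 (415 to 500), and its log2 ratio of 1.05 was 0.79 at 56 or below and 1.12 at 57 or above. The annotation used for neighbours, RefSeq calJac240_pri, shows HOXD3 and HOXD4 overlapping, as it does HOXB3 and HOXB4, and HOXA3 with HOXA4 and HOXA5. How the counting treated such overlaps is not given in the sources used here, and reads could be split among these genes.

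HOXC5, a gene of the cervical cord, differed in many cells rather than a few. It ran between 0 and 49.6 normalized counts (median 7.42) in cells with HOXA9 reads and between 0 and 11.9 (median 0) in cells without. It had reads in 24 of 35 and 9 of 30 cells, and the reads came to 385 (348 to 425) and 67 (51.9 to 85.1). The log2 ratio was 2.28, and 1.61 and 3.60 at cell numbers 56 or below and 57 or above. At 57 or above, 15 of 23 cells with and 1 of 15 without HOXA9 reads carried it, and at 56 or below 9 of 12 and 8 of 15. Leaving out the highest cell of each group gave 2.35. In the annotation HOXC5 lies within HOXC4, which also spans HOXC6, HOXC8 and HOXC9, whereas HOXC4 itself was seen in 24 of 35 and 19 of 30 cells. The single E01F fibroblast also carried these C genes, with HOXC5 at 13.8, HOXC6 at 4.86, HOXC8 at 31.2 and HOXC9 at 6.88 normalized counts. In all it had reads of 19 HOX genes other than HOXA9, 13 of them in groups 5 to 13. Among these were HOXB5, HOXB6 and HOXB7 at 0.809, 2.43 and 0.405 and HOXC10 at 10.1 normalized counts. The fibroblast had HOXD4, HOXB8, HOXB9 and HOXA10 at 0.

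HOXB5 to HOXB9 set a small number of cells apart. HOXB9, a thoracic-level gene, was at 101, 87.2, 32.2, 25.8, 21.5, 18.045 and 6.83 normalized counts in 7 cells with HOXA9 reads (75, 88, 65, 95, 86, 40 and 81) and at 5.29 in 1 cell without (41), and at 0 in all others. Its reads came to 196 (170 to 225) in cells with and 12 (6.20 to 21.0) in cells without HOXA9 reads, and its log2 ratio was 2.99, with 0.89 at cell numbers 56 or below and 3.69 at 57 or above. HOXB6 was at 1.79 to 30.6 normalized counts in 7 cells with HOXA9 reads and at 19.4 in 1 cell without (61), with a log2 ratio of 1.41. HOXB7 had reads in 9 cells with HOXA9 reads, HOXB5 in 6 and HOXB8 in 5, and each in 0 of 30 cells without, which allows a share of cells with a read of up to 10% by a limit of 3 cells and 11.6% by the exact interval. Set against a floor of 3 reads over the 30 cells, their means were at least 8.44-fold higher for HOXB7, 5.87-fold for HOXB5 and 10.1-fold for HOXB8 in cells with HOXA9 reads, a bound that takes no account of how unevenly the reads fell. HOXB8 in particular drew 56.8% of its reads from cell 75.

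The same cells carried several of these B genes at once. At least 2 of HOXB5 to HOXB9 were present in 8 of 35 cells with HOXA9 reads (22.9%, interval 10.4% to 40.1%) and in 0 of 30 without, and in every one of the 8 at least 3 were present. The cells were 40, 56, 65, 75, 81, 86, 88 and 95, of which 2 were numbered 56 or below. Their median was 239103.5 reads, against 287102 in the other 27 cells with HOXA9 reads and 230949 in those without, and their median number of detected genes was 11416.5, against 11107 and 10625. In these 8 cells HOXA9 had a median of 5.34 normalized counts (mean 5.84), against 5.01 (mean 9.44) in the other 27, HOXC5 had medians of 15.8 in the 8 and 4.54 in the 27, HOXD4 of 55.1 and 25.2, and HOXC6 was seen in 4 of the 8 and 4 of the 27. HOXB2, further forward in the same cluster, had a median of 7.76 in the 8 cells, 13.5 in the other 27 and 11.1 in the cells without HOXA9 reads. These 8 cells were picked out after their HOX values were seen.

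The remaining genes of groups 5 to 8 were sparse. HOXA5 had reads in 8 of 35 cells with and 2 of 30 without HOXA9 reads, HOXA6 in 6 and 1, and HOXA7, which precedes HOXA9 in the A cluster of mammals, in 7 and 5, with mean levels of 0.423 and 0.332 normalized counts. Every cell with HOXA6 reads also had HOXA5 reads, namely cells 38, 45, 68, 75, 77 and 88 among those with HOXA9 reads and cell 66 among those without. In the annotation HOXA5 and HOXA6 both overlap the locus LOC103794765, and HOXB5 and HOXB6 both overlap LOC144582879. How reads in these overlaps were counted is not given. HOXC6 was seen in 8 and 0 cells, and HOXC8 in 6 and 3, at up to 22.3 normalized counts in cell 88. HOXD8 went the other way, with means of 6.61 and 9.24 and medians of 2.53 and 8.12 normalized counts, although it was seen in 26 of 35 cells with and 19 of 30 without HOXA9 reads. Its log2 ratio of -0.43 was -0.54 and -0.37 within the lower and higher cell numbers.

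The other genes of groups 9 to 13 were rarer still. HOXA10, the 5' neighbour of HOXA9, had 21 reads in all, in cell 68 at 16.3 and cell 27 at 12.6 normalized counts, both cells with 10 or more HOXA9 reads. It was seen in no cell without HOXA9 reads. HOXC9 was at 10.2, 2.03 and 1.33 normalized counts in cells 68, 88 and 77 and at 0 in the 30 cells without HOXA9 reads. HOXD9 was seen in 3 cells with HOXA9 reads, at up to 6.12 in cell 68, and in 1 cell without, cell 41 at 5.74. HOXA13 had a single read, in cell 91, which had no HOXA9 read. Cell 68 therefore held the highest HOXA9, HOXA10, HOXC9 and HOXD9 values but no read of HOXB5 to HOXB9. Counting all genes of groups 5 to 13 other than HOXC5 and HOXD8, 22 of 35 cells with HOXA9 reads (62.9%, 44.9% to 78.5%) and 9 of 30 without (30%, 14.7% to 49.4%) had at least 1.

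By HOXA9 level, the 8 cells with 10 or more reads had a median of 14 other HOX genes, the 21 with 2 to 9 reads 10, the 6 with 1 read 12.5 and the 30 with none 8. Their median depths were 315284, 288486, 209482.5 and 230949 reads in that order. HOXC5 had reads in 7 of 8, 14 of 21, 3 of 6 and 9 of 30 of these cells, and 2 or more of HOXB5 to HOXB9 in 1, 6, 1 and 0. Median HOXD4 was 50.8, 25.3, 19.0 and 13.6 normalized counts from the highest to the lowest of these levels.

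None of the HOX cofactor, Polycomb and trithorax, or posterior regulator genes compared was past 2-fold in all cells. The MEIS, PBX and PKNOX proteins bind DNA together with HOX proteins, and the 8 such genes compared had a median log2 ratio of 0.17 and a widest value of 0.57 for PKNOX2. MEIS1 averaged 82.4 and 75.1 normalized counts in cells with and without HOXA9 reads, MEIS2 27.5 and 21.2, and MEIS3 69.8 and 70.0. Polycomb and trithorax genes, which silence and maintain HOX clusters, had a median of -0.02 over 20 genes with none past 2-fold in either direction. Among them EZH1, EZH2, EED and SUZ12 had log2 ratios of -0.02, -0.16, -0.53 and -0.51. EED was seen in 17 of 35 cells with and 27 of 30 without HOXA9 reads, with log2 ratios of 0.15 at 56 or below and -1.10 at 57 or above. The list of other genes that promote posterior identity or lie 5' of the HOX clusters had a median of 0.34 over 8 genes, none past 2-fold, with LIN28B at 0.55, WNT5B at 0.79 and NKX1-2 at 0.80, while EVX1, next to HOXA13, had no read.

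The list of caudal and retinoic acid genes had a median of 0.24 over 11 genes, with 2 at least 2-fold higher with HOXA9 reads. CRABP1, which binds retinoic acid in the cytoplasm, averaged 236 and 95.6 normalized counts in cells with and without HOXA9 reads, but its medians were 4.77 and 4.70 and cell 40 alone reached 3028, and its log2 ratio was 1.99 at 56 or below and 0.68 at 57 or above. STRA6, the retinol transporter, averaged 5.07 and 1.85 with a log2 ratio of 1.09, yet -1.55 at cell numbers 56 or below and 1.66 at 57 or above. CDX1, a caudal homeobox gene that activates HOX genes, had reads in 4 of 35 and 0 of 30 cells at a mean of 0.498 in the first. RARA, RARB, RARG and RXRA, the nuclear receptors for retinoic acid, had log2 ratios of 0.21, -0.62, 0.43 and 0.24.

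Of 10 forebrain genes in the table only SP8 reached a mean of 1 normalized count, at 6.53 and 2.67 in cells with and without HOXA9 reads (log2 ratio 1.04). This was 0.60 at equal reads, 0.54 without the shallowest cells and 0.85 without the highest cell of each group. OTX2 and EMX2 had no read in any iNSLC. Of the list for the midbrain and its border with the hindbrain, 6 genes were compared, with a median of -0.22 and none past 2-fold. GBX1, GBX2, IRX1 and IRX2 had log2 ratios of -0.30, 0.66, -0.13 and -0.57, and GBX2, a hindbrain-side determinant of that border, averaged 10.8 and 6.44 normalized counts. Among the hindbrain genes NR2F1 averaged 91.3 and 116 and NR2F2 80.7 and 68.0. EGR2, which marks hindbrain segments, was sparse, with reads in 4 cells with HOXA9 reads and 1 cell without. PHOX2A, a determinant of noradrenergic and visceral motor neurons, had a log2 ratio of 1.80, but 96.6% of its reads in cells with HOXA9 reads were in cell 25, and without the highest cell of each group the ratio was 0.23.

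The dorsal neural tube list had a median of 0.52 over 11 genes, with 2 at least 2-fold higher in cells with HOXA9 reads. PAX3 was level at 95.0 and 95.5 normalized counts, PAX7 averaged 23.3 and 17.6, ZIC1 90.2 and 51.5, and ZIC2 140 and 97.0. WNT3A, a signal of the roof plate, was at 0 in most cells. It had reads in 9 of 35 cells with HOXA9 reads, at up to 213, 65.5 and 62.5 normalized counts in cells 75, 87 and 38, and in 4 of 30 without, at up to 11.2, with a log2 ratio of 2.81. OLIG3, which marks dorsal progenitors, was seen in 9 and 6 cells at means of 7.82 and 2.73, with log2 ratios of 0.18 at 56 or below and 1.497 at 57 or above. The list median was 0.74 at cell numbers 57 or above and -0.18 at 56 or below, so the dorsal genes did not keep their direction in both sets. Of the ventral genes only PTCH1 and GLI1 were compared, at log2 ratios of 0.39 and 0.10.

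**Figure D4:**
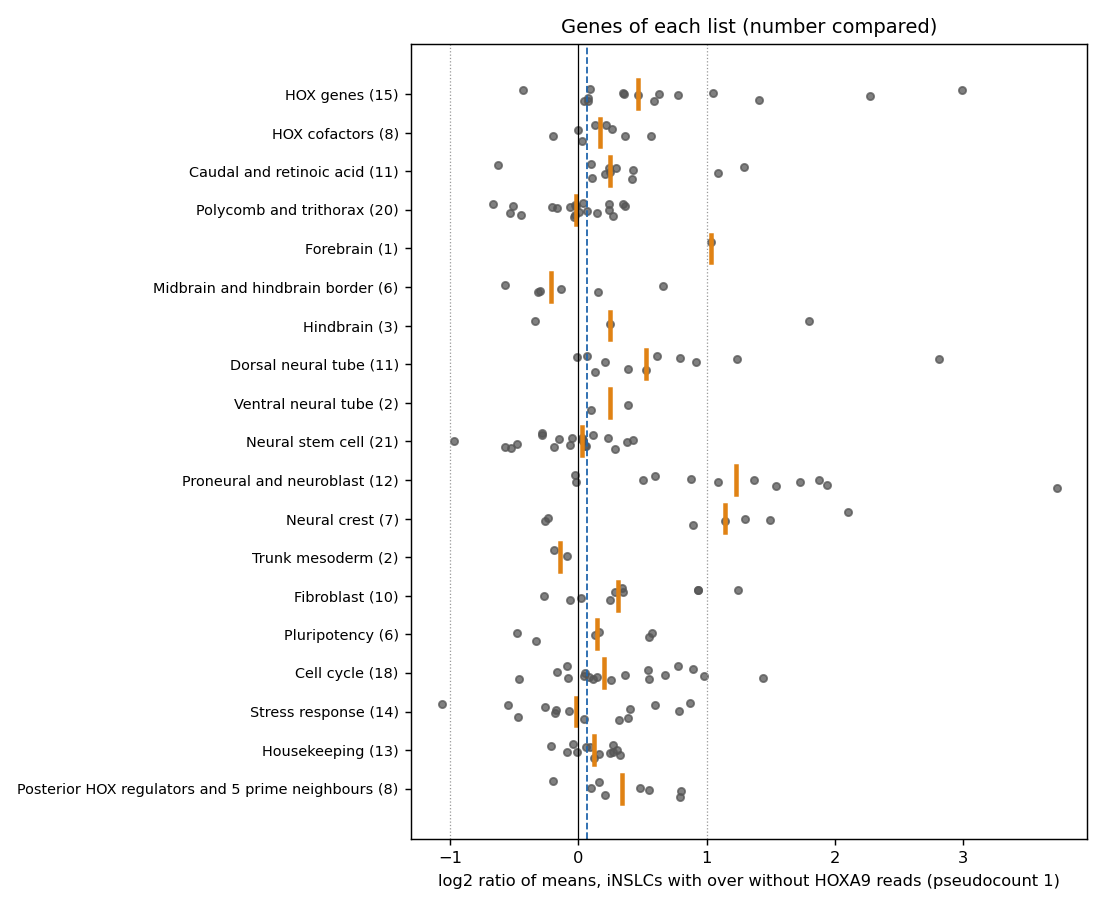
Log2 ratio of group means, iNSLCs with over iNSLCs without HOXA9 reads (x, pseudocount of 1), for each gene compared in 19 gene lists (y, with the number compared). Each point is a gene, orange bars are list medians, the blue dashed line is the median of all genes compared (0.07), and dotted lines mark 2-fold. The medians of the proneural list (1.23) and the neural crest list (1.14) lie furthest right among lists with more than 1 gene. Some genes of both lists met the limit on the mean only through the cells with HOXA9 reads.

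In all cells the proneural and neuroblast list had the highest median of the lists with more than 1 gene, whereas at cell numbers 57 or above the neural crest (0.90), dorsal neural tube (0.74) and cell cycle (0.66) medians were higher. Of its 12 genes compared 7 were at least 2-fold higher with HOXA9 reads and none lower (2.15% and 0.735% of all genes compared), with a median log2 ratio of 1.23, which was 1.55 at cell numbers 56 or below, 0.64 at 57 or above and 0.70 when log2 values were averaged over cells. INSM1, NEUROD4 and NEUROG2 averaged 0, 0.275 and 0.894 normalized counts in cells without HOXA9 reads. They met the limit on the mean only through the cells with HOXA9 reads, so these counts describe and do not test. NEUROG2, which commits progenitors to become neurons, had reads in 17 of 35 cells with HOXA9 reads and 5 of 30 without, at means of 4.52 and 0.894 normalized counts. DLL1, the Notch ligand shown by newly forming neurons, was present in every cell of both groups, at medians of 31.9 and 24.3, and its mean of 85.8 in cells with HOXA9 reads, against 32.5 in cells without, rested on values of 1088 in cell 57 and 645 in cell 25. HES6, an antagonist of HES1, was seen in 27 of 35 and 15 of 30 cells at medians of 6.69 and 0.687. INSM1, a zinc finger gene of newborn neurons, was at 187, 109, 85.7, 29.8 and 18.3 normalized counts in cells 27, 81, 40, 57 and 25, all with HOXA9 reads, and at 0 in all 60 other iNSLCs. Set against the floor of 3 reads over the 30 cells without HOXA9 reads, this was at least 88.5-fold higher, with 54.8% of the reads in cell 27. NEUROD4 had log2 ratio 1.88, DLL3 1.94 and MAP2 1.09, whereas STMN2 and ELAVL3, genes of more mature neurons, were level at -0.02 each. DCX averaged 33.1 and 17.5 normalized counts and was seen in 26 of 35 and 26 of 30 cells.

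Most of these neuronal levels came from few cells. The number of the 15 genes with reads was 3 to 14 (median 7) in cells with HOXA9 reads and 2 to 9 (median 5) in cells without, and at equal reads the medians were 6 and 5. The highest counts, 14, 13 and 13, were in cells 40, 25 and 27, followed by 11 in cells 57 and 81, which are the 5 cells with INSM1 reads. Of these 5, cells 40 and 81 also belonged to the 8 cells with several of HOXB5 to HOXB9. Neural stem cell genes were level, with a median log2 ratio of 0.03 over 21 genes and none past 2-fold. HES5, a Notch target that holds progenitors back from differentiation, had the widest value of these, at -0.97, with means of 17.3 and 34.8 normalized counts and reads in 23 of 35 and 24 of 30 cells, but its direction differed between the sets, with 0.27 at 56 or below and -1.56 at 57 or above. Of the 21 genes, 1 was at least 2-fold lower at 57 or above, at equal reads and with scaling to the median total. The number was also 1 with HOXA9 at 2 or more reads, without the 10% shallowest cells and without the highest cell of each group. With log2 values averaged over cells it was 2.

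**Figure D5:**
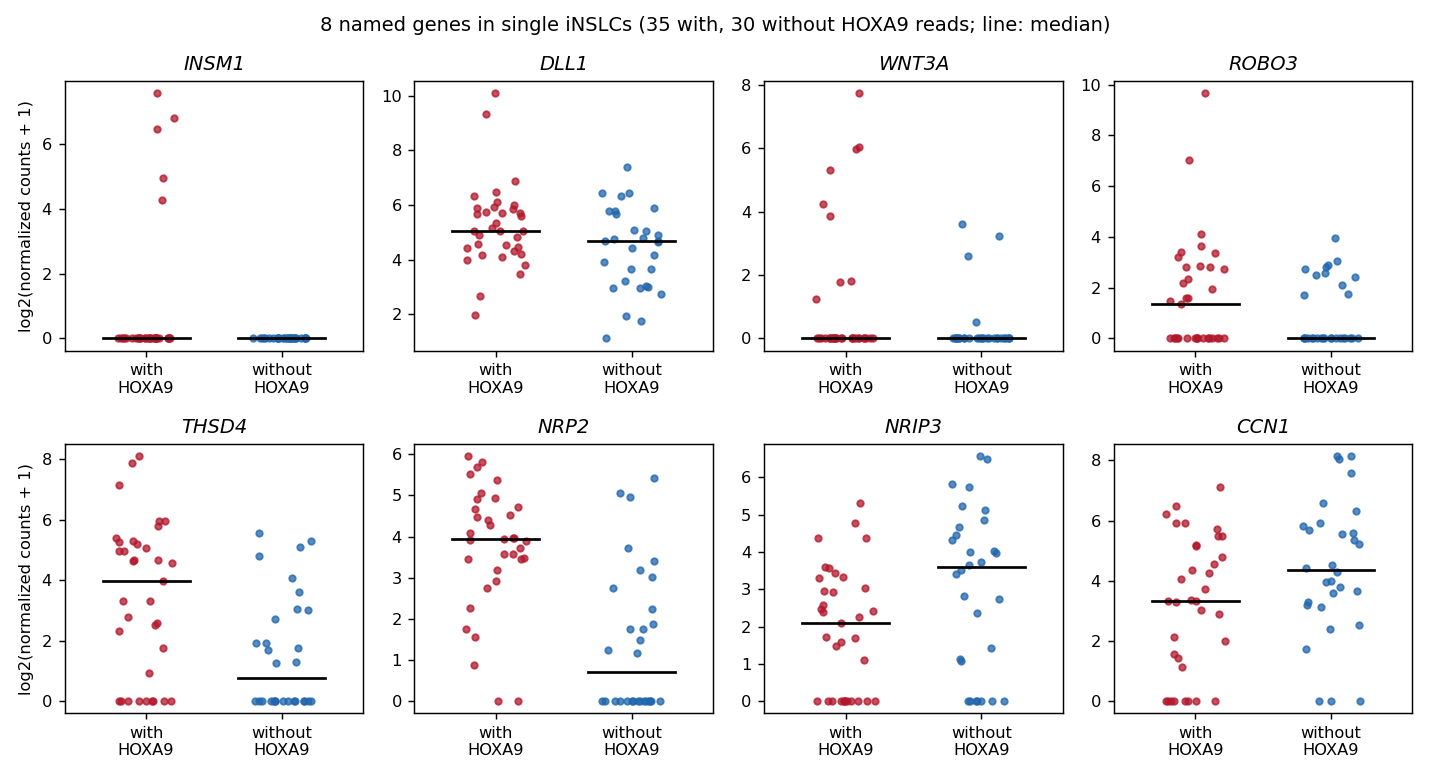
Log2(normalized counts + 1) of 8 genes in single iNSLCs (y), with HOXA9 reads on the left of each panel (red, 35 cells) and without on the right (blue, 30 cells), and black lines at the group medians. INSM1 is above 0 in 5 cells, all on the left, NRP2 and THSD4 have separated medians, and ROBO3 owes its difference in means mainly to 1 cell at 805 normalized counts.

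The neural crest list had a median log2 ratio of 1.14 over 7 genes, of which 4 were at least 2-fold higher with HOXA9 reads, namely TFAP2A, TFAP2B, SNAI2 and ETS1 (2.15% of all genes compared). In cells without HOXA9 reads TFAP2A, TFAP2B and ETS1 averaged 0, 0.0789 and 0.137 normalized counts. They met the limit on the mean only through the cells with HOXA9 reads, so the count and the median describe and do not test. Without the highest cell of each group the median was 0.58 and 2 of the 7 were past 2-fold. With HOXA9 at 2 or more reads the median was 0.89, and 2 of the 7 were past 2-fold. SNAI2, an inducer of epithelial to mesenchymal transition, was the most widely seen, in 24 of 35 and 16 of 30 cells at means of 6.88 and 2.58 normalized counts. TFAP2A was seen in 7 cells with and 0 of 30 without HOXA9 reads, a mean at least 23.7-fold above the floor of 3 reads, but 88% of its reads were in cell 40, TFAP2B in 2 and 1, and ETS1 in 3 and 1. SOX10 had reads in 2 and 3 cells and FOXD3 in none. SNAI1 and EDNRB had log2 ratios of -0.26 and -0.24. With log2 values averaged over cells the list median was 0.24 and none of the 7 was past 2-fold.

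The cell cycle list had a median of 0.20 over 18 genes in all cells, with 1 gene past 2-fold, but 0.66 at cell numbers 57 or above, where 3 genes were past 2-fold and 17 of 18 lay above 0, and 0.24 at 56 or below. With HOXA9 at 2 or more reads 4 genes were past 2-fold. AURKB, a mitotic kinase, was the gene past 2-fold in all cells, at means of 19.8 and 6.67 normalized counts with reads in 9 cells of each group. MKI67, TOP2A, CCNA2 and CCNB1 had log2 ratios of 0.36, 0.90, 0.26 and -0.46. Stress response genes had a median of -0.02 over 14, with DNAJB1, a heat shock co-chaperone, lower at 5.70 and 13.01 (log2 ratio -1.06, with -1.83 at 56 or below and -0.45 at 57 or above). FOS, FOSB, JUN and JUNB stood at -0.18, 0.40, 0.60 and 0.87. The fibroblast list had a median of 0.31 over 10 genes, with THY1, a surface glycoprotein of fibroblasts and neurons, past 2-fold at 11.5 and 4.26 (0.86 at 56 or below and 1.29 at 57 or above). COL1A1, COL1A2, COL5A1 and PDGFRA had log2 ratios of 0.34, 0.34, 0.93 and 0.28. Trunk mesoderm genes had a median of -0.14 over 2 genes (MESP1 and MESP2). The median was -1.17 at 56 or below, where both were at least 2-fold lower, and 0.38 at 57 or above. Of other mesoderm markers, TBX6 had reads in 8 of 35 cells with and 3 of 30 without HOXA9 reads, MEOX1 in 9 and 3, and TBXT in 1 and 1. Pluripotency genes had a median of 0.15 over 6 and housekeeping genes 0.12 over 13. POU5F1, also on the vectors, was seen in 15 and 9 cells at means of 6.40 and 9.30, with log2 ratios of 1.34 at 56 or below and -1.50 at 57 or above, and ACTB and GAPDH had log2 ratios of 0.12 and -0.01.

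Over all 13602 genes compared, 293 (2.15%) were at least 2-fold higher and 100 (0.735%) at least 2-fold lower in cells with HOXA9 reads. At cell numbers 56 or below, where fewer cells enter each mean, 955 (7.02%) were higher and 684 (5.03%) lower, with 2 of 15 HOX genes among the higher. At 57 or above 410 (3.01%) were higher and 193 (1.42%) lower, with 4 of 15 HOX genes among the higher. Leaving out the highest cell of each group for each gene gave 276 (2.03%) higher and 67 (0.493%) lower, and 4 of 15 HOX genes were again among the higher.

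Outside the HOX clusters and the lists, some of the widest differences were spread over many cells. NRP2, a co-receptor for semaphorins and VEGF, had reads in 33 of 35 cells with and 15 of 30 without HOXA9 reads, ran between 0 and 61.1 normalized counts (median 14.3) in the first and between 0 and 42.1 (median 0.634) in the second, and had log2 ratios of 1.62 in all cells, 2.05 at 56 or below and 1.27 at 57 or above. THSD4, an extracellular matrix protein, had a median of 14.6 in cells with HOXA9 reads, against 0.687 in cells without, and was seen in 26 and 15 cells (log2 ratio 2.20). RASGEF1B, an exchange factor for Ras-type GTPases, was seen in 21 and 8 cells (2.01). SFRP1, a secreted WNT antagonist, was seen in 18 and 8 cells (1.43). ERICH2 was seen in 31 and 18 cells (1.48), but 50% of its reads in cells with HOXA9 reads were in cell 25. Without the highest cell of each group the ERICH2 ratio was 0.87. CCK, the cholecystokinin neuropeptide, had a log2 ratio of 2.57 with reads in 21 and 10 cells, at 4.25 for cell numbers 57 or above and 0.46 for 56 or below.

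Some high ratios rested in large part on 1 cell. ROBO3, a guidance receptor of commissural neurons, had the widest ratio of these, 3.31, but 84.5% of its reads in cells with HOXA9 reads were in cell 40. Without the highest cell of each group the ROBO3 ratio was 1.54. With HOXA9 at 2 or more reads, which leaves out cell 40, it was 1.39. DLL3 and RAP2A, a small GTPase, drew 76.5% and 65.8% of their reads from cells 25 and 45, and without the highest cells their ratios were 0.48 and 0.36 in place of 1.94 and 1.62. FNDC5 (1.58) and ENC1 (1.46), an actin-binding protein of the nervous system, were seen in 21 and 11 and in 30 and 23 cells, with 1.37 and 1.24 when the highest cells were left out. That step kept a second high cell of each gene with HOXA9 reads. The highest and second highest values were 143 and 121 normalized counts for FNDC5 and 221 and 212 for ENC1. With log2 values averaged over cells the ratios of FNDC5 and ENC1 were 0.62 and 1.03.

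Of the genes with the lowest ratios, some differed over many cells and others through single cells of the group without HOXA9 reads. NRIP3 was at 0 to 38.7 normalized counts (median 3.24) in cells with and 0 to 94.2 (median 11.0) in cells without HOXA9 reads, with log2 ratios of -1.50 in all cells and -1.33 and -1.61 in the sets. CCN1, a matrix-bound signalling protein and target of YAP, was at 0 to 138 (median 9.11) and 0 to 282 (median 19.4), with -1.26 in all cells and -1.40 and -1.32 in the sets. CARMIL3 (-1.40), which regulates actin capping, was seen in 11 of 35 and 17 of 30 cells. SNX4 (-1.27), a sorting nexin, and CRISPLD2 (-1.42), a secreted protein, were also lower than -1 in both sets, whereas OPA3 (-1.26), a mitochondrial protein, was at -2.17 and -0.44. PRORP, the nuclease subunit of mitochondrial RNase P, was at -1.75 in all cells, -1.75 at 56 or below and -0.29 at 57 or above. THAP6, at -2.30, owed this to 1 cell of the group without HOXA9 reads, cell 33 at 377 normalized counts, and was at -0.02 when the highest cells were left out. The same cell held the highest values of CEPT1, KLHL28 and LATS1, whose ratios of -1.05, -1.03 and -1.03 were -0.84, -0.40 and -0.25 without the highest cells.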

How the data were processed

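Single cells were profiled by RamDA-seq. The authors deposited a signal per gene and cell, namely counts normalized with 1 factor for each cell. Tools listed in the submitters' processing notes are STAR 2.6.0c for alignment, featureCounts 1.5.1, Trimmomatic and Seurat 3.0.0. For genome build, annotation and strand setting, nothing is given in the sources used here. Dividing by the value of 1 read gave whole reads within 0.02 for 100% of non-zero values. The row without a gene name, at most 0.0137% of an iNSLC's total, was left out, leaving 23561 genes. Reads per iNSLC ran between 82268 and 695241.

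The groups were compared by differences of log2(mean + 1) for all genes whose mean over the iNSLCs reached 1, HOXA9 left out, and 2-fold was used as the limit. Shares have Clopper-Pearson and read sums Poisson intervals at 95%. Each sample is 1 cell of 1 culture, so no test was made. Thinning drew 129629 reads per cell without replacement. Alternatives were a mean limit of 10, a pseudocount of 10, no filter, scaling to the median total, equal reads, HOXA9 at 2 or more reads, means of log2 values, each set of cell numbers, and leaving out the 10% shallowest cells or the highest cell per gene. The steps were tested on simulated data, only for genes with a mean of 10 or more and changes wider than 2-fold. Lower genes and changes near 2-fold were not covered. Python 3.11.15, pandas 2.3.3, numpy 2.4.6, scipy 1.17.1 and matplotlib 3.10.9 were used.

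The cells, the division at cell number 56, and the 19 lists (272 of 316 genes in the table, 31 of 39 HOX genes) were chosen with earlier results of these data known. Of the HOX genes, HOXB13, HOXC11, HOXC12, HOXC13 and HOXD10 to HOXD13 were not analysed here. Genes named are HOX genes with reads, list genes past 2-fold and up to 4 others per list in list order, and the 12 of widest ratio each way outside HOX and LOC genes with a mean of 10 or more in the higher group, reads in at least 50% of cells of that group and 1 direction in both sets of cell numbers. Other genes of a list were named after their values were seen. Values of some single genes that these rules name are not reported here, while counts and sums include them. All 31 HOX symbols matched RefSeq calJac240_pri, used for neighbours only.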

Additional observations from a re-analysis of the deposited data

Results flagged for a closer look

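HOXA9 reads were found outside the iNSLCs in the single fibroblast, at 1.62 normalized counts from 4 reads, a level above the limit of 3 reads, while the ESC and iPSC cells had none. That cell is not in the comparison of the 2 groups of iNSLCs. STRA6 moved in opposite directions in the 2 sets of cell numbers, with a log2 ratio of -1.55 at 56 or below and 1.66 at 57 or above, and the difference between the sets was not tested.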

How the results depend on the processing

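The counts of genes past 2-fold depend on how low genes are treated. With a pseudocount of 10 there were 13 higher, 5 lower and 0 HOX genes, against 293, 100 and 4 as reported. A mean of at least 10 gave 42, 10 and 1, and averaged log2 values gave 172, 17 and 2. No filter gave 7 HOX genes, equal reads 218 lower genes, cell numbers 56 or below 955 higher, 684 lower and 2 HOX genes, and 57 or above 193 lower genes. None of the 15 HOX genes compared was past 2-fold lower under the 11 alternatives. The difference in mean number of other HOX genes per cell was 3.82, and 2.08 at 56 or below. For groups 5 to 13, a grouping and alternatives chosen after seeing the data, it was 2.20, and 1.08 at 56 or below. The log2 ratio of the summed HOX level was 0.735, and 0.66 with scaling to the median total, 0.63 at equal reads, 0.50 at 56 or below and 0.66 without the 10% shallowest cells. The ratio of median reads per cell was 1.18, and 0.948 at 56 or below, 1.14 at 57 or above and 1.25 with HOXA9 at 2 or more reads. The neural crest median was -0.24 at a mean of at least 10, where only EDNRB is left, and STRA6 was at -1.55 at 56 or below. The cause of these shifts was not tested, apart from the fewer cells or genes that an alternative leaves. Of 45 named genes past 2-fold, 43 kept their direction in every alternative, the exceptions being STRA6 and ETS1, which had no read at 56 or below. A mean limit of 10, no filter and a pseudocount of 10 could not change a direction. Still past 2-fold were 10 with a pseudocount of 10, 15 with averaged log2 values and 32 without the highest cell of each group. At 56 or below 32 were, at 57 or above 29, and between 40 and 42 with scaling, at equal reads, with HOXA9 at 2 or more reads or without the shallowest cells. For the genes named by the widest ratios, 1 direction in both sets was a condition of being named. No paired analysis was possible because the groups are cells of 1 culture and share no replicate numbers. Depth limits the split itself, since a cell at 0 HOXA9 reads may carry the transcript.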
